A study of Homo sapiens with 8 samples.

Results

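S100 proteins are small calcium-binding proteins with paired EF-hand motifs, and the 10 members described here are S100A2, S100A4, S100A6, S100A7, S100A8, S100A9, S100A10, S100A11, S100A14 and S100P. They were taken by gene name from the array, which held 43317 named genes, and the brightest probe of each gene was used. All 10 had a probe, 11 probes in all because S100A11 had a pair of them, and each probe was printed once per array. The series measured RNA on 8 two-colour arrays of 1 slide, each with untransfected mock cells in Cy3 and transfected cells of the same line in Cy5. FaDu, a hypopharyngeal squamous cell carcinoma line, received miR-99a-5p or miR-99a-3p. PC3, a prostate cancer line, received miR-150-5p, miR-150-3p, miR-99a-3p or miR-100-3p. PANC-1, a pancreatic cancer line, received si-FOXQ1-1 or si-FOXQ1-2, siRNAs against the transcription factor FOXQ1. Small RNAs were delivered with Lipofectamine RNAiMAX, dyes were not swapped, and no array compared a control oligonucleotide with mock, so the effect of a given sequence and of transfection itself cannot be told apart. Each transfection had 1 array, so the ratios of transfected over mock cells carry no replicate check and no p-value.

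S100 proteins bind calcium and then change the shape of the surface with which they hold partner proteins. Most human family members are encoded side by side on chromosome 1, inside the epidermal differentiation complex, a block of genes used by squamous epithelium, whereas S100P lies on chromosome 4. Inside cells they act on the cytoskeleton, annexins and p53, and several are secreted and act on the receptors RAGE and TLR4. S100A8 and S100A9 pair to form calprotectin, an antimicrobial complex abundant in neutrophils and monocytes and also made by stressed or inflamed squamous epithelium.

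The miRNAs matter for reading the ratios because a miRNA selects its targets mainly through its seed, and miR-99a-3p was tested in both FaDu and PC3. RefSeq sequences (GRCh38.p14) were found for 3 of the 5 miRNAs and are printed 5′ to 3′ with the seed, bases 2 to 8, in capitals. miR-150-5p and miR-150-3p are named only.
miR-99a-5p: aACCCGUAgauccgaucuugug
miR-99a-3p: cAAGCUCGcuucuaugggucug
miR-100-3p: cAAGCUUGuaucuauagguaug
Counted from 1 at the 5′ end, miR-99a-3p and miR-100-3p differed by 5 substitutions, C7U, C9U, U10A, G16A and C20A, of which C7U lies in the seed. miR-99a-5p had a different seed from both.

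The values rest on a few facts of the whole slide. Between 43.5% and 48.2% of the genes were well above background in Cy3 and between 36.5% and 40.9% in Cy5, and no member spot was saturated. All 7 squamous markers were above background in FaDu mock cells. KRT5, KRT14 and DSG3 were not so in PC3 or PANC-1, whereas SFN was in all 3 lines and PKP1 was higher in PC3 than in FaDu. The prostate gene KLK3 was not well above background in any mock channel, and the keratins KRT8 and KRT18 were above background in 4 of 4 PC3 mock channels. Of the duct markers, MUC1 was highest in PANC-1, KRT19 was near its PC3 level, KRT7 was lowest in PANC-1 and PDX1 was not well above background in any line. SOX9 was 1.32-fold lower in PANC-1 than in PC3. KRT8 and KRT18, also on the duct list, were highest in PANC-1. FOXQ1 itself had log2 ratios of -2.16 and -2.12 on the si-FOXQ1-1 and si-FOXQ1-2 arrays. The labels do not say whether mock channels of a line came from separate cultures, so p-values between lines measure the spread between channels, which may be technical.

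The 4 PC3 mock channels fell into 2 pairs, and 2 members were among the genes that separated them most. The channels of the miR-150-5p and miR-150-3p arrays formed a pair, those of the miR-99a-3p and miR-100-3p arrays the other, and each pair lay in its own row of the slide. S100A9 mock levels (log2 Cy3 signal after normalization between arrays) were 8.41 and 8.61 in the first pair and 4.46 and 4.85 in the second, where 4.46 was not well above background. S100A14 mock levels were 10.31 and 10.28 against 6.60 and 6.71. The pairs did not overlap for either gene. The pair means differed by 3.64 for S100A14 (12.5-fold), the 9th widest gap of 20324 genes, of which 1.71% differed by 2-fold or more. The measured means of S100A9 differed by 3.85, with 1 of 2 channels of the second pair above background. Within the pairs, 0.517% and 1.04% of genes differed that much.

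The transfected channels showed the same arrangement. S100A9 was higher by 4.54 and S100A14 by 3.65 (log2) in the Cy5 channels of the miR-150 arrays than in those of the miR-99a-3p and miR-100-3p arrays, where S100A9 was above background in 1 of 2. S100A2 and S100P differed between the mock pairs by 0.80 and 0.76, whereas S100A4, S100A6, S100A10 and S100A11 differed by 0.10 or less in size. KRT6A was above background in both mock channels of the first pair and in neither of the second. What separated the pairs was not tested, and slide row and pair cannot be told apart. PC3 levels of S100A9 and S100A14 are therefore given by pair.

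**Figure D1:**
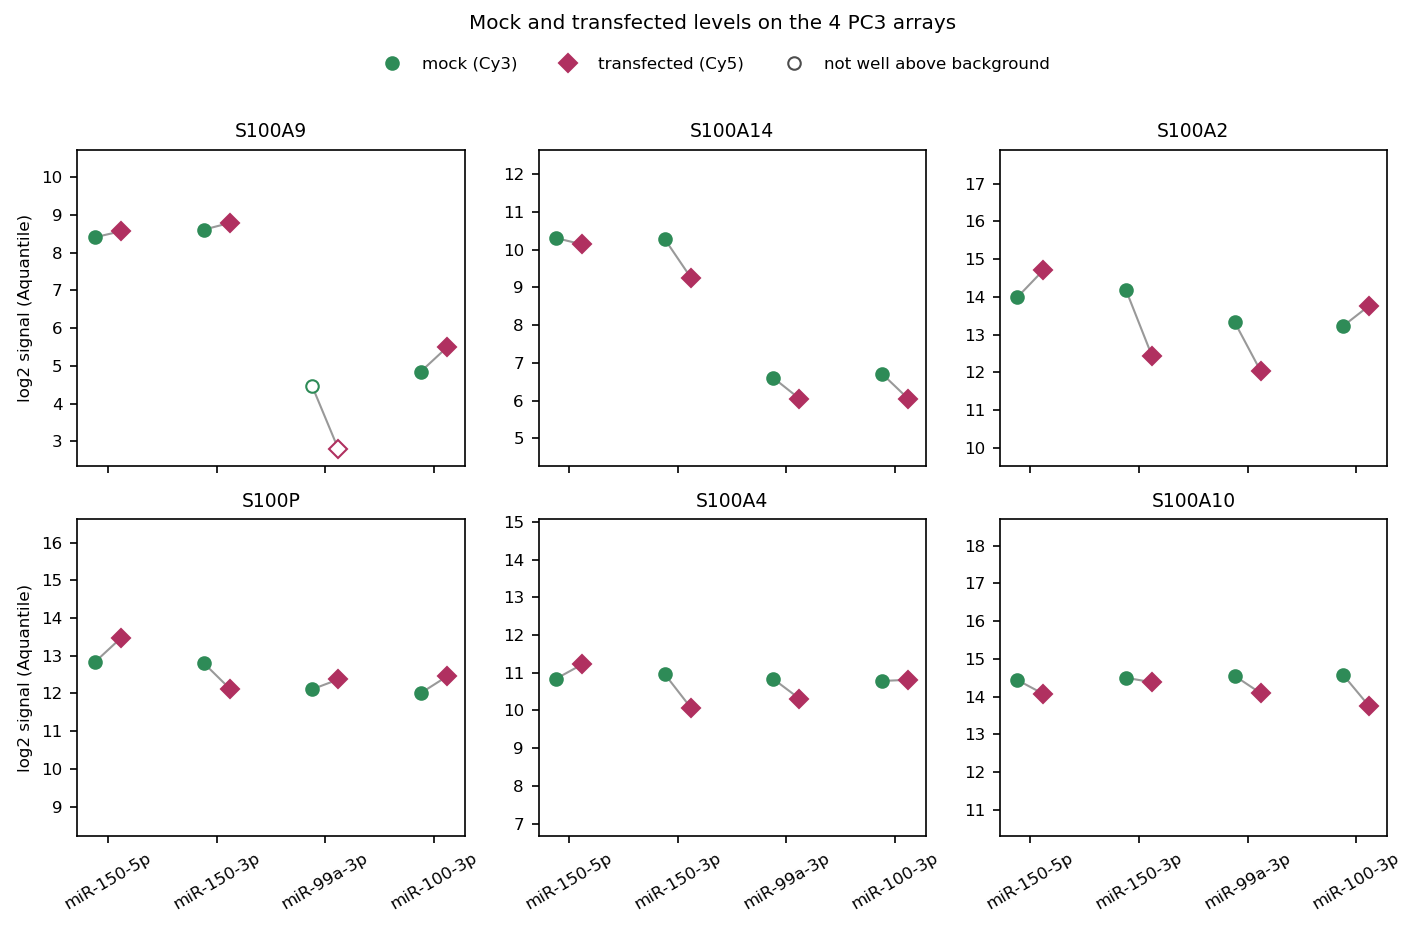
Mock (Cy3, circles) and transfected (Cy5, diamonds) log2 signals of 6 members on the 4 PC3 arrays, each panel spanning the same number of log2 units, with open symbols for signals not well above background. S100A9 and S100A14 sat more than 3 log2 units higher in both channels of the miR-150 arrays, while the mock levels of S100A4 and S100A10 stayed level.

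The largest S100 differences of the series were on the FaDu miR-99a-3p array, where the calprotectin genes and S100A7 were higher and S100P was lower in transfected cells. All 10 members were detected there, that is well above background in at least 1 channel, and 4 passed 2-fold, 3 upward and 1 downward, on an array where 17.6% of detected genes did. The median over the members was -0.09 against 0.03 for all genes above background in both channels. In bulk RNA, fewer cells that express a gene and less RNA per cell cannot be told apart.

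S100A8, the smaller calprotectin chain (probe at chr1:153362548-153362607 in hg19, minus strand), had a Cy3 signal of 135.1 and a Cy5 signal of 1101.3 on that array, 8.15-fold higher in transfected cells. Its log2 ratio was 3.03 (spot error of the scanner software 0.35), and 0.302% of the 19184 detected genes had a ratio as high. S100A9, its partner, went from 180.8 to 663.3, a log2 ratio of 1.88 (error 0.27). S100A7, psoriasin, an antimicrobial protein of inflamed skin, went from 72.7 to 366.8, a log2 ratio of 2.34 (error 0.32).

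All 3 ratios exceeded their spot errors several times over, but all 3 mock signals were dim. With normexp background correction (offset 50, which draws dim ratios toward 0) and loess they were 2.14 for S100A8, 1.46 for S100A9 and 1.21 for S100A7, still past 2-fold. The shares of detected genes with a ratio as high were 0.834% for S100A7 and 1.76% for S100A9. S100A12, the third calgranulin and not among the 10 members, was above background only in the transfected channel (13.3 to 53.2), at least 1.77-fold higher. S100A7A, whose 250 bases before the start site were 96.4% identical to those of S100A7, was not well above background on any array, and whether the S100A7 probe binds its RNA was not tested.

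On the FaDu miR-99a-5p array the same genes lay on the same side of 0 but under 2-fold. S100A8 went from 67.8 to 114.6, a log2 ratio of 0.76 (error 0.27). S100A7 went from 41.6 to 64.4, a ratio of 0.63 (error 0.36), and S100A9 had a ratio of 0.27 (error 0.25). The ratio of S100A9 was thus hardly past its spot error. These signals were dim too, and with normexp and loess the ratios of S100A8 and S100A7 fell to 0.35 and 0.20. The 2 arrays carried separate mock channels of one line, and the difference between the strands was not tested.

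S100P, a placental S100 protein that binds ezrin and is often abundant in carcinomas (probe at chr4:6698819-6698878 in hg19, plus strand), was lower in transfected FaDu cells. Its Cy3 signal of 27218.4 and Cy5 signal of 4399.7 on the miR-99a-3p array gave a log2 ratio of -2.63 (error 0.32), 6.19-fold lower in transfected cells, and 0.652% of detected genes were as low. With miR-99a-5p it went from 16103.7 to 6800.7, a log2 ratio of -1.24 (error 0.23), 2.37-fold lower. That was the only member past 2-fold on the miR-99a-5p array, where 5.72% of detected genes passed. S100P was thus lower with both strands, and the difference in size between them was not tested.

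The remaining members stayed under 2-fold in FaDu. S100A14, a family member of epithelial cells, had ratios of -0.43 (error 0.21) with miR-99a-5p and -0.88 (error 0.22) with miR-99a-3p. S100A4, a regulator of non-muscle myosin linked to cell motility, had ratios of 0.12 and 0.82 (error of each 0.23). S100A2, a nuclear family member of basal epithelial cells, had nearly equal signals with miR-99a-3p (138798.4 and 139169.4, log2 ratio 0.00, error 0.20). S100A6, S100A10 and S100A11 had ratios between -0.36 and 0.44 on the 2 arrays.

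**Figure D2:**
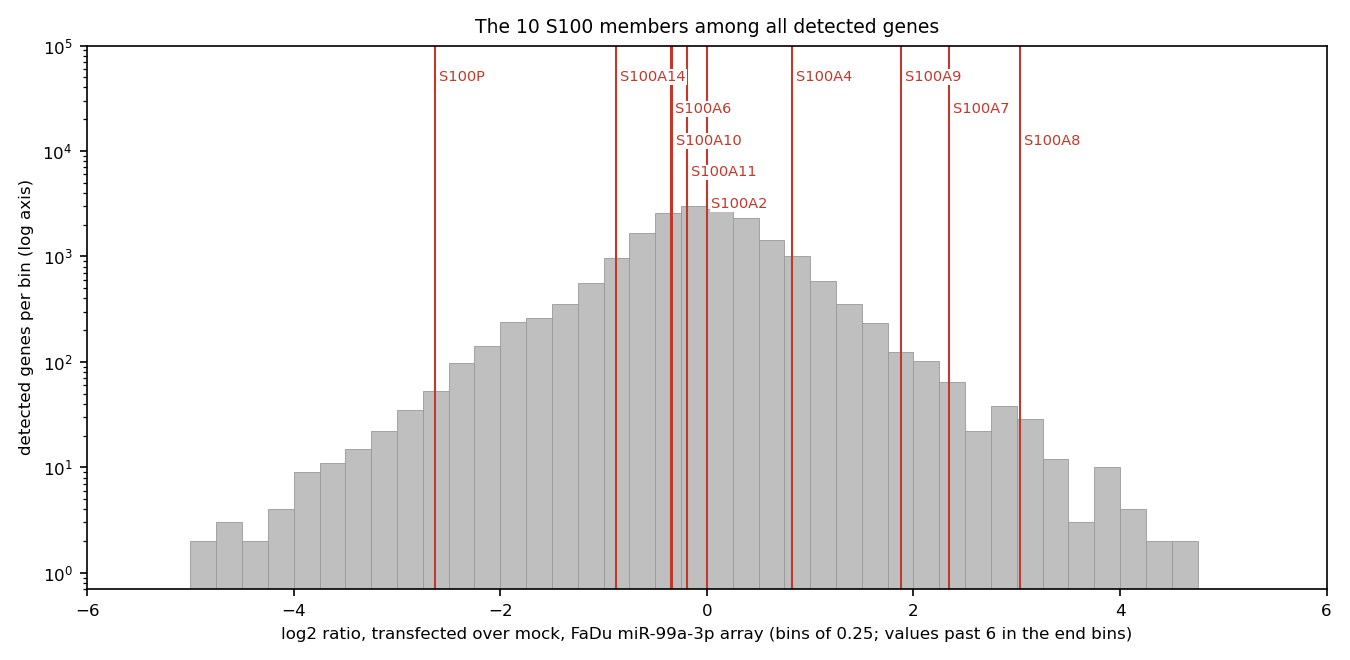
Log2 ratios of the 10 members (vertical lines) on the FaDu miR-99a-3p array, over the number of detected genes in each bin of 0.25 log2 units (vertical axis on a log scale). S100A9, S100A7 and S100A8 lie in the upper tail at 1.88, 2.34 and 3.03, S100P in the lower tail at -2.63, and the other 6 within 1 log2 unit of 0.

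Markers of other cell types were followed beside these ratios. All 7 squamous markers had ratios below 0 on the miR-99a-3p array and 5 passed 2-fold downward, KRT6A (-2.83), DSG3 (-1.94), KRT14 (-1.66), PKP1 (-1.46) and KRT5 (-1.17), where 9.37% of detected genes passed 2-fold downward. Their summed signal was 266005.7 in Cy3 and 131259.6 in Cy5. On the miR-99a-5p array none of the 7 passed 2-fold, and the sums were 152927.2 and 152984.5.

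Of the 4 measured myeloid markers, CD14, a monocyte co-receptor for bacterial lipopolysaccharide, was above background in both FaDu channels. CD14 had log2 ratios of 0.66 (error 0.22) with miR-99a-5p and 2.54 (error 0.31) with miR-99a-3p, where its signal went from 386.2 to 2245.2. PTPRC, the leukocyte common antigen, was well above background in Cy3 (46.7) but not in Cy5 (64.3), and ITGAM and CSF1R were not above background in either channel. The summed signal of the list was 468.9 in Cy3 and 2356.2 in Cy5 with miR-99a-3p, and CD14 held most of both. The part of either marker list in the S100 ratios was not tested.

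Promoter sequence is shown for members that moved in opposite directions on this array, S100A7 and S100A9 against S100P, each with 1 annotated start. The sequences are the 250 bases before the RefSeq start site (GRCh38.p14), 5′ to 3′ on the gene's strand, S100A7 at chr1:153460652-153460901 (minus), S100A9 at chr1:153357604-153357853 (plus) and S100P at chr4:6693628-6693877 (plus). Capitals mark matches to TATAAA on the forward strand and to the C/EBP-type motif TTNNGNAA on either strand.
S100A7: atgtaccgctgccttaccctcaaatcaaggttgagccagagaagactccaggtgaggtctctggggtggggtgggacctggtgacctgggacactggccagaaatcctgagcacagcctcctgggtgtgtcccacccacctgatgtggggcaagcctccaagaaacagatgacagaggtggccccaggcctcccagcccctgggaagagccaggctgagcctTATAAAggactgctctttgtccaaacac
S100A9: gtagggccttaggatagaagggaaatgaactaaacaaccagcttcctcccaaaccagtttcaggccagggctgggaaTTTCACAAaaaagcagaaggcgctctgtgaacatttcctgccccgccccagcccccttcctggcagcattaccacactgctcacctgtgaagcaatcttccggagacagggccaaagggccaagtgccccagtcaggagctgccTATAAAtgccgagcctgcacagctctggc
S100P: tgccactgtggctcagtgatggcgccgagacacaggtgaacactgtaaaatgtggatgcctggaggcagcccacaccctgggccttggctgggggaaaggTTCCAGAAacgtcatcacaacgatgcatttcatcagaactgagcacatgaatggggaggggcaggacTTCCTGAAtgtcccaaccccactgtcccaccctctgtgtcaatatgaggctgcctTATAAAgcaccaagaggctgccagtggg
All 3 windows held TATAAA at a like distance, its first base at -28 in S100A7, -29 in S100A9 and -28 in S100P. The box was thus found in genes of both directions. Over the family it was in 6 of 13 member windows (5 of 10 genes) and in 6.8% of 35116 RefSeq windows of this length. S100A8 has 3 of the 13 windows, which overlap, so the same match was counted in more than 1 of them. TTNNGNAA matched S100A9 at -173 and S100P at -150 and -83. Over the family it matched 6 of 13 member windows (5 of 10 genes), and 33.2% of all windows. The AP-1 motif TGANTCA, searched on both strands, matched 1 member window, that of S100A2 at -52, and 6.57% of all windows. The motifs did not overlap one another in the printed windows, and a match is a description of letters, not a bound site.

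In PC3, S100A2 had the widest range of ratios of any member, lower with 2 of the miRNAs and higher with the other 2. Its probe lies at chr1:153533831-153533890 in hg19 (minus strand). With miR-150-3p it went from 21588.0 to 6422.2, a log2 ratio of -1.75 (error 0.26), 3.36-fold lower. With miR-99a-3p it went from 14259.1 to 5790.3, a ratio of -1.30 (error 0.24), 2.46-fold lower. With miR-150-5p it went from 15563.0 to 25789.2 and with miR-100-3p from 8511.1 to 12447.9, ratios of 0.73 and 0.55 (error of each 0.21). The signs therefore differed between the strands of miR-150 and between miR-99a-3p and miR-100-3p, whose seeds differ at C7U, and neither difference could be tested with 1 array each.

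The miR-150-3p array held the most PC3 members past 2-fold, 2 of 8 detected, both downward, where 9.36% of detected genes passed. The second was S100A14, from 1524.0 to 752.6, a log2 ratio of -1.02 (error 0.22), just past the limit. Just inside it on this array were S100A4 at -0.90 (error 0.22), from 2437.4 to 1307.3, and S100P at -0.67 (error 0.21), from 8484.3 to 5318.3. The member median was -0.47, and 0.03 over all genes above background in both channels. Set against the mean of all 4 PC3 mock channels instead, the ratio of S100A14 turned to 0.79, since that mean mixes the pairs.

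With miR-150-5p none of 8 detected members passed 2-fold, and 5.16% of detected genes did. Beside S100A2, S100P was higher (7079.4 to 11059.5, log2 ratio 0.64, error 0.21) and S100A11, a family member that binds annexins at membranes, was lower (4385.2 to 3184.5, ratio -0.46, error 0.21). S100P thus had opposite signs with the 2 strands of miR-150. S100A9, well measured in this pair of arrays, had ratios of 0.16 and 0.19 (error of each 0.21), within its spot error.

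With miR-99a-3p in PC3, S100A2 was the only member of 7 detected past 2-fold, where 11.6% of detected genes passed, and 6 of the 7 ratios were below 0. S100A6, calcyclin, had its lowest ratio of the series there, from 191613.8 to 115371.0 (-0.73, error 0.21). The member median was -0.51 against 0.07 over all genes above background in both channels. S100A9 was not above background in either channel of this array, and S100A7 and S100A8 in none of the PC3 channels, so these genes have no ratio with miR-99a-3p in PC3 to set beside FaDu. S100P, which was lower in FaDu, had a ratio of 0.26 (error 0.21), from 6141.5 to 7357.3.

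With miR-100-3p none of 8 detected members passed 2-fold, and 4.33% of detected genes did. S100A10, the p11 light chain that binds annexin A2, came nearest, from 22107.8 to 12369.8, a log2 ratio of -0.84 (error 0.22). S100A14 had a ratio of -0.66 (error 0.26) at dim signals, from 98.5 to 62.2. S100A14 was below 0 on all 6 arrays where it was detected, between -1.02 and -0.18.

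In PANC-1, where FOXQ1 was targeted, 6 members were detected. All 6 had ratios below 0 with both siRNAs. Those of S100A10 and S100A11 lay within the spot error, as did that of S100A2 with si-FOXQ1-1. Of detected genes, 46.8% were as low as S100A2 (-0.05) with si-FOXQ1-1. With si-FOXQ1-2, 49.2% were as low as S100A10 (-0.02). S100P went from 1979.7 to 770.6 with si-FOXQ1-1, a log2 ratio of -1.36 (error 0.24), 2.57-fold lower. With si-FOXQ1-2 it went from 1890.5 to 1290.7, a ratio of -0.55 (error 0.21), 1.46-fold lower. The 2 siRNAs thus shared the sign for S100P, the difference in size between them was not tested, and their FOXQ1 ratios differed by less than the spot error.

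S100P was the only member past 2-fold with si-FOXQ1-1, where 4.21% of detected genes passed, and none did with si-FOXQ1-2, where 3.70% passed. The other 5 members, S100A2, S100A4, S100A6, S100A10 and S100A11, lay between -0.30 and -0.02 over both arrays. S100A4 had a ratio of -0.28 (error 0.21) on each. Member medians were -0.19 and -0.27, against 0.00 and 0.01 over all genes above background in both channels.

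**Figure D3:**
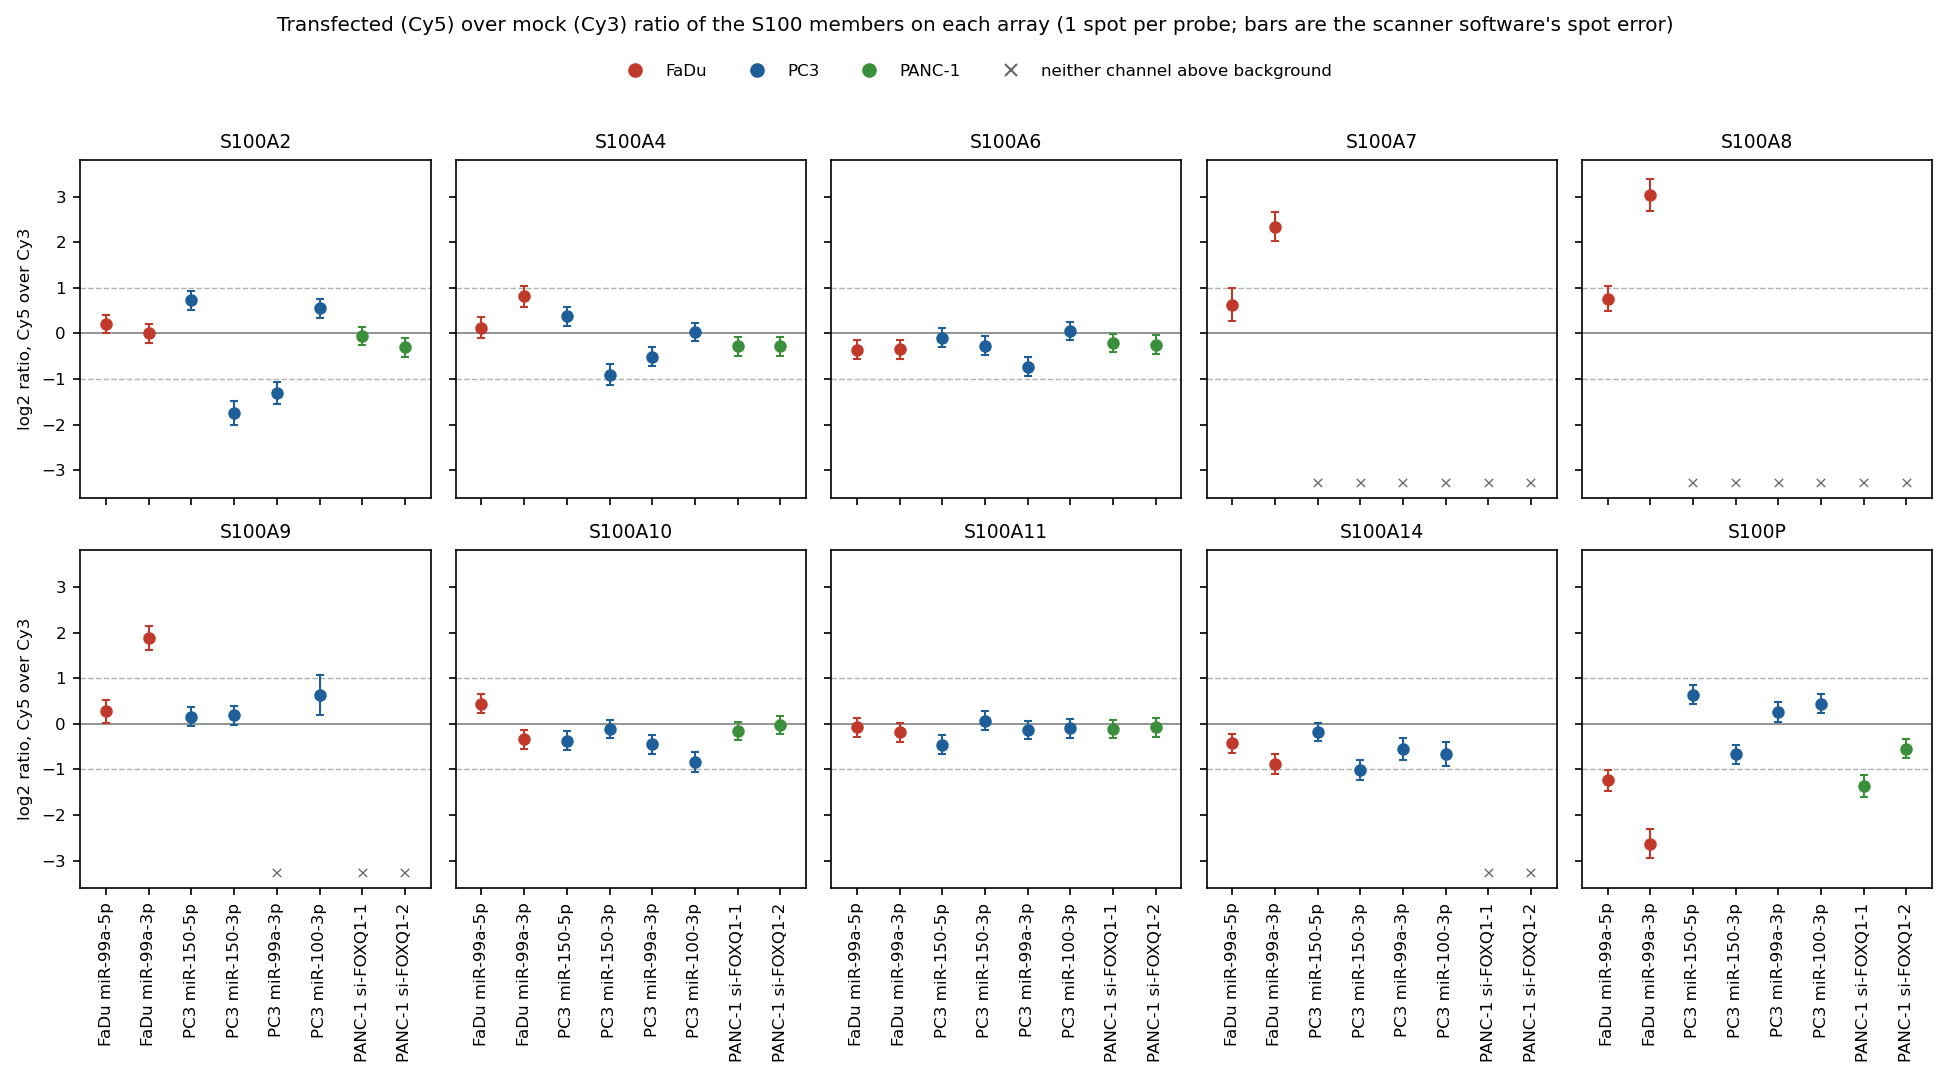
Log2 ratio of transfected (Cy5) over mock (Cy3) cells for each of the 10 members on the 8 arrays, 1 spot each, with bars for the scanner software's spot error, dashed lines at 2-fold and crosses where neither channel was above background. S100P and S100A2 range most widely among members measured on all arrays, S100A11 stays within 0.46 of 0, and S100A7 and S100A8 were measured only in FaDu.

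Over the 8 arrays, 63 of 80 pairs of member and array were detected, all 63 in both channels, and 9 passed 2-fold, 3 upward and 6 downward. The 6 members above background on every array were S100A2, S100A4, S100A6, S100A10, S100A11 and S100P. S100P had the widest range among them (3.27, from -2.63 to 0.64) and exceeded its spot error on 8 of 8 arrays. S100A2 followed with a range of 2.48. S100A11 had the narrowest, 0.53, and exceeded its spot error on 1 array.

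For the 2 members of widest range, the genes whose ratios ran most alike over the 8 arrays were looked up among 13243 genes above background throughout. For S100P these were 2 probes named only by transcript, ENST00000546264 (Pearson r = 0.981) and ENST00000401937 (r = 0.980), and SLC25A6 (r = 0.979), a mitochondrial ADP/ATP carrier. None of the 3 exceeded a log2 ratio of 0.76 in size on any array, so the likeness is one of pattern over the arrays and not of size. For S100A2 they were PABPC4 (r = 0.974), a poly(A)-binding protein, ARHGAP22 (r = 0.967) and SH2D4A (r = 0.953). These are descriptions over 8 arrays that share a slide.

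Of the 10 other S100 genes on the array, 6 had a channel above background somewhere. S100A5 had a log2 ratio of 1.01 (error 0.25) with miR-99a-5p in FaDu, from 99.9 to 201.6. S100A3, a cysteine-rich S100 protein of the hair cuticle, had -1.01 (error 0.22) with miR-99a-3p in PC3, from 1102.3 to 548.8, and 0.53 (error 0.21) with the same miRNA in FaDu. S100A13, a carrier in the release of fibroblast growth factor, had -0.59 and -0.67 (error of each 0.21) with miR-99a-3p and miR-100-3p in PC3. S100A16 lay between -0.55 and 0.15, S100G was above background on the PC3 miR-150-5p array only (0.37, error 0.29), and S100A12 is given above.

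The mock cells also allow the 3 lines to be compared, with 2 FaDu, 4 PC3 and 2 PANC-1 channels. The lines had different S100 sets: FaDu was high in S100A2, S100A14 and S100P and held S100A7 and S100A8, PANC-1 was high in S100A4, and PC3 shared high S100A6 with PANC-1. Differences were tested with limma on the log2 Cy3 signal and called at a Benjamini-Hochberg adjusted p under 0.05 and at least 2-fold. Levels are compared between lines for the same probe only. The FaDu channels lay in the slide row of the miR-150 pair, and the PANC-1 channels in that of the other pair. With slide row as a block, FaDu or PANC-1 is thus compared with the PC3 pair of its own row alone. FaDu and PANC-1 shared no row, so their difference under the block runs through the gap between the PC3 pairs. Without the PC3 channels, row and line cannot be told apart between them.

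S100A2 was ordered FaDu, PC3, PANC-1, at 16.54 ± 0.02 (SD, n = 2), 13.68 ± 0.47 (n = 4) and 9.81 ± 0.01 (n = 2), with no overlap. FaDu exceeded PC3 by 2.86 (SE 0.28, limma adjusted p = 6.64e-05), or by 2.46 against the miR-150 pair alone and 3.26 against the other. FaDu exceeded PANC-1 by 6.73 (SE 0.32, limma adjusted p = 2.45e-06), or by 5.92 with slide row as a block. S100A4 had the opposite order, PANC-1 at 14.14 ± 0.01, PC3 at 10.85 ± 0.08 and FaDu at 7.45 ± 0.08. PANC-1 exceeded FaDu by 103-fold (FaDu minus PANC-1 -6.69, SE 0.08, limma adjusted p = 1.11e-08), and PC3 lay between them.

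S100P followed S100A2, FaDu at 14.37 ± 0.05, PC3 at 12.44 ± 0.44 and PANC-1 at 11.13 ± 0.03, and FaDu exceeded PANC-1 by 3.24 (SE 0.30, limma adjusted p = 6.35e-05), or by 2.48 with slide row as a block. PANC-1 was lower than PC3 by 2.47-fold (-1.31, SE 0.26, adjusted p = 0.00332), but by 1.90-fold (-0.93), under the limit, against the miR-99a-3p and miR-100-3p pair of PC3 channels or with slide row as a block. S100A14 was at 14.25 ± 0.04 in FaDu and not well above background in PANC-1, at least 944-fold lower. FaDu exceeded PC3 by 5.78 (SE 1.25, limma adjusted p = 0.00426), which was 54.8-fold, or 15.5-fold against the miR-150 pair alone and 193-fold against the other pair. With slide row as a block FaDu exceeded PANC-1 by 7.23 (a fitted 150-fold), and under normexp by 7.94. PC3 exceeded PANC-1 at least 60.9-fold in the miR-150 pair and at least 4.88-fold in the other. Over all 4 PC3 channels that difference was called, and without the mock channel of the si-FOXQ1-1 array (-4.56, limma adjusted p = 0.0628) it was not.

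S100A7 and S100A8 were above background in FaDu only, at 5.83 ± 0.05 and 6.64 ± 0.17. They and S100A9 had to differ from the dim lines, because they passed the filter only through FaDu. S100A7 was at least 3.53-fold higher than in PC3 and at least 2.75-fold higher than in PANC-1. S100A8 was at least 6.25-fold and at least 4.83-fold higher. The calls of S100A7 were lost under normexp and loess, where its differences were 0.64 and 0.65. Those of S100A8 were kept there, but at 1.15 and 1.14 (2.21-fold each), less than the bounds above. The bounds thus hold for the main processing only. With slide row as a block, FaDu exceeded PANC-1 by 2.37 for S100A8 and by 1.75 for S100A7.

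S100A9 was at 7.10 ± 0.11 in FaDu and not well above background in PANC-1, at least 6.63-fold lower. PC3 exceeded PANC-1 at least 17.6-fold in the miR-150 pair and at least 1.22-fold in the other, where 1 of 2 channels was above background. The call over all 4 PC3 channels (limma adjusted p = 0.0231) was lost without either PANC-1 channel (adjusted p = 0.0919 and 0.0940). In PC3 its order against FaDu depended on the pair, above FaDu in the miR-150 pair (FaDu minus PC3 -1.41, SE 0.10, limma adjusted p = 0.000229) and below it in the other (2.44, SE 0.15, adjusted p = 0.000148). Over all 4 channels the difference was 0.52 (SE 1.29, adjusted p = 0.729). FaDu minus PANC-1 was called at an adjusted p of 0.0252 over all 8 channels. That call was lost when any 1 FaDu or PANC-1 channel was left out (limma adjusted p between 0.0769 and 0.0857), and with slide row as a block (0.87, SE 0.21, adjusted p = 0.0124, under 2-fold).

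S100A6 was at 16.95 ± 0.11 in PC3, 16.88 ± 0.04 in PANC-1 and 14.43 ± 0.01 in FaDu. FaDu was lower than PC3 by 5.72-fold (-2.52, SE 0.08, limma adjusted p = 2.57e-07), and PC3 and PANC-1 differed by less than their spread (-0.07, SE 0.08). S100A11 was at 13.24 ± 0.06 in PANC-1, 13.12 ± 0.08 in FaDu and 12.15 ± 0.02 in PC3. PANC-1 exceeded PC3 by 1.09 (SE 0.06, limma adjusted p = 3.94e-06), FaDu exceeded PC3 by 0.97, just under 2-fold, and FaDu and PANC-1 were neighbours that did not differ beyond their spread (-0.12, SE 0.07, adjusted p = 0.159). S100A10 was nearly level, at 14.46 ± 0.08, 14.51 ± 0.06 and 14.83 ± 0.13 in FaDu, PC3 and PANC-1, and no contrast reached 2-fold.

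Of the 10 members tested, 7 were called between FaDu and PC3 (5 higher in FaDu), where 41.8% of the 21496 genes tested were called. Between PANC-1 and PC3, 6 were called (2 higher in PANC-1) against 32.9%, and between FaDu and PANC-1, 8 (6 higher in FaDu) against 38.7%. Called with the gene above background in both lines were 5, 4 and 4 members. The rest were called through 1 line only, so these counts say nothing about the family as a whole.

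**Figure D4:**
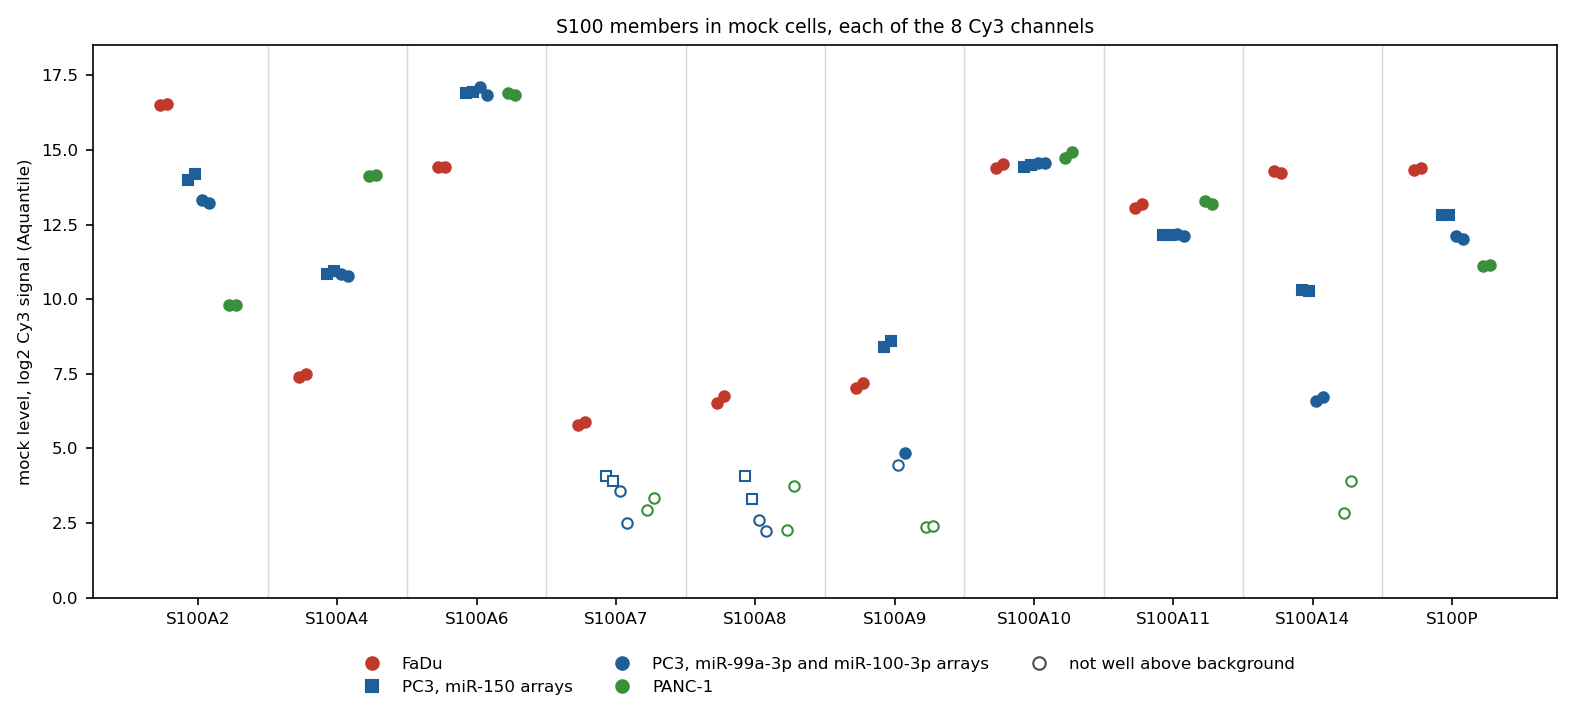
Log2 Cy3 signal of the 10 members in each of the 8 mock channels, by line, with squares for the PC3 channels of the miR-150 arrays and open symbols where the signal was not well above background. S100A2 and S100A4 order the lines in opposite ways, S100A10 is nearly level, and S100A9 and S100A14 split the PC3 channels into 2 pairs.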

How the data were processed

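RNA of the 8 Cy3 (mock) and 8 Cy5 (transfected) samples was hybridised by the authors on 8 two-colour Agilent arrays. The deposited intensities (red and green processed signals) and log10 ratios came from Agilent Feature Extraction 10.7.3.1, named in the file headers, which subtracted background and normalized the dyes within each array, and the probe annotation is hg19. Nothing scaled the arrays to one another. The series value table equalled the scanner log10 ratios.

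Ratios were turned to log2. Flagged outlier spots were left out (81 to 178 per array of 60901), repeat spots were averaged by probe, and the brightest probe stood for its gene. A gene counted as detected with either channel well above background, and a difference on 1 array was counted from 2-fold. A bound sets the bright channel against the lowest signal well above background. Mock levels were Aquantile-normalized log2 signals, tested in limma 3.58.1 (R 4.3.3) with Benjamini-Hochberg adjustment over the genes above background in every mock channel of at least 1 line. The fit was tested on simulated data. The number of arrays limits the precision. Members and gene lists were chosen with earlier results of these data known. Named were all 10 members, other S100 genes with a signal, and partner, complex and marker genes past 2-fold above background in both channels, or markers that show or miss the labelled cell type, at most 8 a list. The alternatives tried were another background correction and scaling, all probes, kept outliers, other filters and limits, pooled mock channels and leaving out each mock channel. Splitting the PC3 mock channels by pair, the slide row as a block and mock channels of the same row as control were chosen after seeing the data. Sequences are RefSeq's (GRCh38.p14), whose coordinates are never mixed with those of hg19. One marker gene of the lists is not reported here.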

Additional observations from a re-analysis of the deposited data

Results flagged for a closer look

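For 2 members the ratio with miR-99a-3p had one sign in FaDu and the other in PC3, each past its spot error. S100P had log2 ratios of -2.63 in FaDu and 0.26 in PC3, a difference (FaDu minus PC3) of -2.89. Its PC3 ratio was only just past the spot error. Against the mean of all PC3 mock channels, which mixes the pairs, that ratio was -0.07. S100A4 had log2 ratios of 0.82 in FaDu and -0.51 in PC3, a difference of 1.33. With 1 array per line neither difference was tested.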

How the results depend on the processing

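No paired analysis was possible because the groups share fewer than 2 replicate numbers, and each ratio already sets both samples of 1 array side by side. Under the alternatives listed at the outset, the 63 detected log2 ratios were recomputed. Of the recomputed values, 416 stayed within the spot error, 24 moved by more, and 1 from past 2-fold turned its sign. That was S100A14 with miR-150-3p in PC3, from -1.02 to 0.79 against the mean mock of the line. That mean spans both PC3 pairs. Some of the 24, all in PC3, crossed 0 as well. Against that mean, S100A14 with miR-150-5p (-0.18 to 1.66), S100A9 with miR-100-3p (0.64 to -1.09) and S100P with miR-99a-3p (0.26 to -0.07) did so. With normexp and loess, S100A6 with miR-150-5p went from -0.09 to 0.31. Members past 2-fold: at 1.5-fold the counts became 3 (FaDu miR-99a-5p), 2 (PC3 miR-150-5p), 4 (miR-150-3p), 2 (miR-99a-3p) and 3 (miR-100-3p); at 4-fold they became 0 for FaDu miR-99a-5p, PC3 miR-150-3p, PC3 miR-99a-3p and si-FOXQ1-1. Against the mean mock of the line they were 4, 2 and 2 for miR-150-5p, miR-99a-3p and miR-100-3p in PC3. With no filter on dim spots they were 3, 1 and 2 for PC3 miR-99a-3p, PC3 miR-100-3p and si-FOXQ1-1. With normexp (offset 50, which draws dim ratios to 0) and loess, PC3 miR-150-3p had 1, and S100A7, S100A8 and S100A9 in FaDu with miR-99a-3p fell to 1.21, 2.14 and 1.46. Between mock lines, members called were 4 for FaDu minus PC3 and 4 for FaDu minus PANC-1 when all 8 channels had to be above background, since dim members then drop out. All genes called numbered 5442, 4007 and 4900 under normexp, against 8988, 7075 and 8312. S100A9, FaDu minus PC3, turned from 0.52 to -1.41 with the miR-150 pair alone. Slide row as a block gave the same value, because it makes the same comparison. S100A7 lost its calls under normexp (0.64 and 0.65), and S100A9 its PANC-1 calls under normexp and with no filter. Leaving out each mock channel moved no count of called members past 1.5 times. Dim mock signals limit S100A7, S100A8 and S100A9 most.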

Other observations

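Of 14 genes whose products bind, receive or regulate S100 proteins, 12 or 13 were detected per array. CACYBP, the calcyclin-binding protein, had a log2 ratio of -1.08 (error 0.23) with miR-99a-3p in PC3, where S100A6 had -0.73. TLR4, a receptor for S100A8 and S100A9, had 1.94 (error 0.32) with miR-150-3p in PC3, from 34.5 to 132.4. With miR-150-5p it was above background in mock cells only, at least 1.12-fold lower in transfected cells. In FaDu none of the 14 passed 2-fold on the miR-99a-5p array, where 5.72% of detected genes did, or on the miR-99a-3p array, where 17.6% did.

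Of the 13 other genes of the epidermal differentiation complex, 5 were detected on each FaDu array. With miR-99a-3p, SPRR2A, a cornified envelope precursor, had a log2 ratio of -2.20 (error 0.30), from 403.1 to 87.8, and TCHH, trichohyalin, had 1.38 (error 0.40), from 37.2 to 96.5. SPRR1B had -0.81 (error 0.23). TCHH also had 1.47 (error 0.45) with si-FOXQ1-1 in PANC-1, from 20.4 to 56.2. Loricrin and filaggrin (LOR, FLG) were not well above background in FaDu.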
